A study of Saccharomyces cerevisiae with 48 samples.

Results

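In budding yeast (Saccharomyces cerevisiae) lacking TOF1, a culture with replication origins deleted on chromosome III was compared with a culture that kept them, by relative DNA copy number through meiotic S phase. The comparison is of tof1∆ ars∆ with tof1∆ ARS+, 1 culture each, at the 7 matched times of 1, 1.5, 2, 2.5, 3, 3.5 and 4 hr in meiosis. It takes 14 of the 48 samples of the series, chosen by genotype and time in the labels. Every one of the 4568 positions listed per table was used, of which 118 lie on chromosome III and 4450 on the other 15 chromosomes. The cells of both cultures carried the TOF1 deletion and went through meiosis in 2% potassium acetate at 30 °C. The series holds the same pair of states in wild type and in cells that overproduce DDK (DDK OP). Those 4 cultures are used here only for values set beside those of the tof1∆ pair. From general knowledge of the study, its ars∆ strains lack active origins of the left arm of III. The labels write ars∆ without naming the origins, and the strain background and the construction of the deletions are not given in the sources used here.

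Replication starts at origins, called ARS elements in yeast, from which a pair of forks moves outwards. DNA that has lost its own origins is copied by forks arriving from neighbouring origins, and so later. Tof1 travels with the fork as part of a complex that steadies it, makes it pause at protein barriers and holds DDK (the Cdc7-Dbf4 kinase, which fires origins) at the fork. During meiosis the time at which DNA is copied is linked to the time at which recombination is initiated in it. The study is known for asking whether this link passes through DDK at the fork. The pair without Tof1 sets the replication profiles of an ars∆ and an ARS+ culture side by side where that fork component is absent.

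Each value below is log2 of the deposited ratio over the median of that sample, so 0 is the median position of the genome. A positive value means more copies than the median, as in DNA copied early, and all differences are tof1∆ ars∆ minus tof1∆ ARS+. With 1 culture per strain there is no replicate and no test, and the 7 times of a culture are not replicates. The spread of the same quantity over the other 15 chromosomes, whose origins the study is not known to have altered, serves as the yardstick. The deposited ratios of the 14 samples ran from 0.605 to 1.45, and their means lay between 1.0003 and 1.0016. The tables hold no counts, so the sequencing depth behind a value is unknown and its counting error cannot be given. TOF1 lies on chromosome XIV. The lowest ratio on XIV was 0.721 in tof1∆ ars∆ and 0.806 in tof1∆ ARS+, so neither culture has a position near 0 there and the gene's deletion is not visible in ratios of this kind. Neighbouring positions correlated at 0.58 in the 1 hr sample of tof1∆ ars∆ and at 0.53 in that of tof1∆ ARS+. Positions 2.5 kb apart are therefore not separate measurements.

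The left region of chromosome III, its first 100 kb, had fewer relative copies in tof1∆ ars∆ than in tof1∆ ARS+ from 2.5 hr on, and more up to 2 hr. In tof1∆ ars∆ the mean over its 36 positions was 0.11 at 1 hr, 0.11 at 1.5 hr, 0.093 at 2 hr, 0.019 at 2.5 hr, -0.098 at 3 hr, -0.093 at 3.5 hr and -0.091 at 4 hr. In tof1∆ ARS+ it was 0.038, 0.037, 0.056, 0.090, 0.084, 0.024 and -5.4e-05 at the same times. With origins in place the region was highest at 2.5 and 3 hr, in mid S phase, and had come back to the genome median by 4 hr. Without them it stood above the median at 2.5 hr, at a lower level than before, and below it from 3 to 4 hr.

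The difference in the left region was 0.069 at 1 hr, 0.074 at 1.5 hr, 0.037 at 2 hr, -0.071 at 2.5 hr, -0.18 at 3 hr, -0.12 at 3.5 hr and -0.091 at 4 hr. At 3 hr this is a change in relative copies of -11.8% in tof1∆ ars∆ against tof1∆ ARS+. Among 116 other regions of 100 kb the difference at 3 hr ran from -0.057 to 0.073. None of the 116 was as low as the left region at 2.5, 3, 3.5 or 4 hr. The margin at 2.5 hr was small, since the lowest other region stood at -0.069 then. At 1 and 1.5 hr the left region was above all 116, whose highest values were 0.057 and 0.067.

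**Figure D1:**
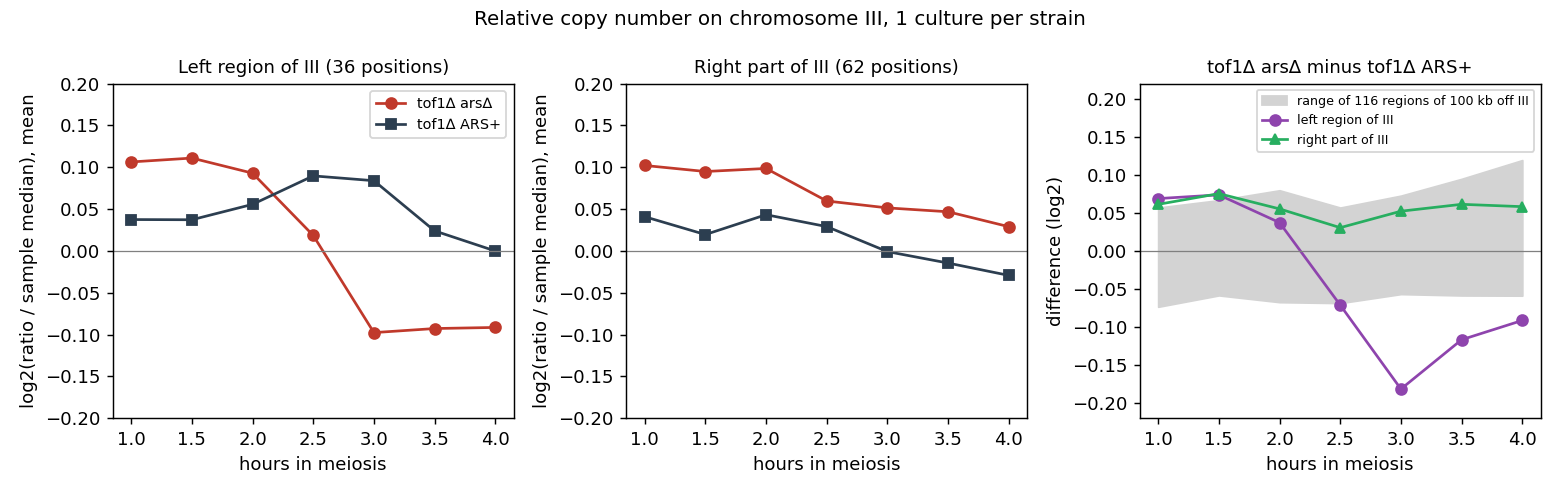
Mean log2 of ratio over sample median (vertical axis) by hours in meiosis for the left region and the right part of chromosome III, with tof1∆ ars∆ in red circles and tof1∆ ARS+ in dark squares, and, in the last panel, the difference between the cultures beside the grey range of 116 other 100-kb regions. The left region lies above the grey range at 1 and 1.5 hr and below it from 2.5 hr on, with -0.18 at 3 hr, while the right part stays between 0.031 and 0.075.

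Relative to the 1 hr value of each culture, the left region differed by 0.0049 at 1.5 hr, -0.032 at 2 hr, -0.14 at 2.5 hr, -0.25 at 3 hr, -0.19 at 3.5 hr and -0.16 at 4 hr. At 2 hr 6 of the 116 other regions were as low, and from 2.5 hr none was. Averaged over 2 to 4 hr minus 1 hr, which is called the shift here, the left region had -0.14 in tof1∆ ars∆ and 0.013 in tof1∆ ARS+, a difference of -0.15. Part of this difference comes from the 1 hr samples, in which the left region was higher by 0.069 in tof1∆ ars∆. The shifts of the 116 other regions had an SD of 0.017 and ran from -0.050, at 1000001 to 1100000 on chromosome VII, to 0.049, at 200001 to 300000 on chromosome XII. Without the 1 hr baseline, as a plain mean of 1 to 4 hr, the difference was -0.040 and 3 of the 116 regions were as low. That mean holds the times at which chromosome III was higher in tof1∆ ars∆.

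**Figure D2:**
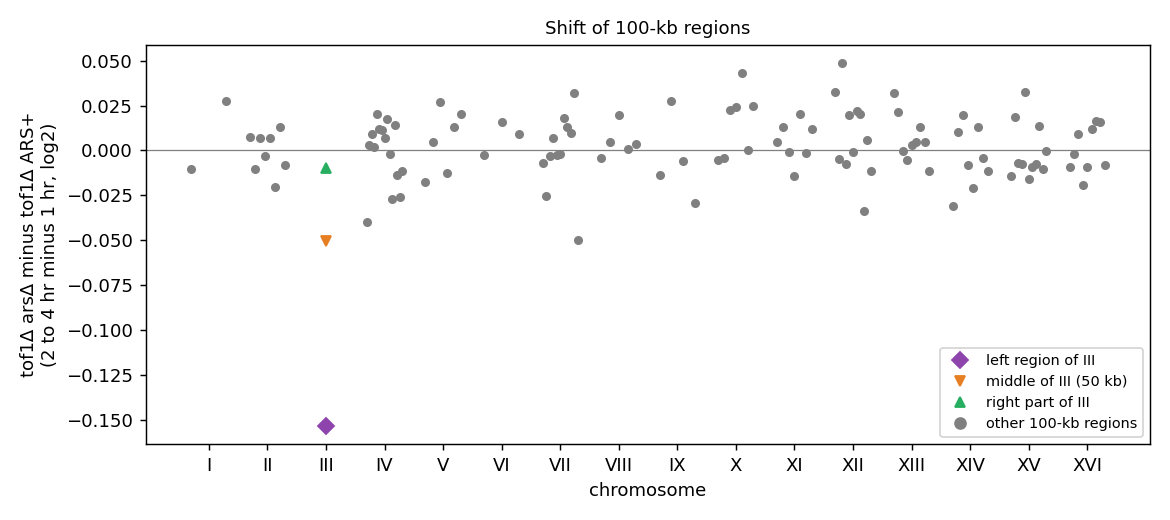
Shift (2 to 4 hr minus 1 hr, log2, tof1∆ ars∆ minus tof1∆ ARS+) of 116 regions of 100 kb by chromosome, as grey points, with the left region, the middle and the right part of chromosome III as coloured symbols. The left region lies at -0.15, below the lowest grey point of -0.050.

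The difference was smaller at 4 hr than at 3 hr, and it was the culture with origins whose mean level differed between these times. From 3 to 4 hr the mean of tof1∆ ars∆ stayed between -0.098 and -0.091, whereas that of tof1∆ ARS+ was 0.084 at 3 hr and -5.4e-05 at 4 hr. Single 10-kb windows of tof1∆ ars∆ did change, in both directions. That at 60001 to 70000 had -0.23 at 3 hr and -0.12 at 4 hr. The window at 80001 to 90000, where 2 positions are listed, had -0.020 and -0.16. At 4 hr 33 of the 36 positions were below 0, the median over all positions, in tof1∆ ars∆ and 20 in tof1∆ ARS+.

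The difference was broad rather than carried by a few positions. At 3 hr 35 of the 36 positions of the left region were lower in tof1∆ ars∆. By 0.1 or more 28 of the 36 were lower, against 13.1% of positions on the other chromosomes. The position values had a median of -0.15 and ran from -0.46, at 67500, to 0.073, at 12500. At 1 hr only 7 of the 36 were lower, against 50.2% off III. The numbers lower were 27 at 2.5 hr (49.0% off III), 28 at 3.5 hr (48.9%) and 28 at 4 hr (49.4%). On the shift 34 of the 36 were lower, against 49.1% off III.

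In 10-kb windows the low shifts lay side by side. A window is counted as lower here where the shift is -0.1 or below, and as higher where it is 0.1 or above. On chromosome III 9 of 31 windows were lower and 0 were higher. Off III 15 of 1143 windows were lower, 1.31%, and 27 were higher, 2.36%. All 9 lie in the first 120 kb, with 7 of them adjacent from 20001 to 90000 and the other 2 covering 100001 to 120000. No other chromosome had more than 2 adjacent lower windows. All 12 windows of the first 120 kb had a negative shift, with a median of -0.17, whereas the 19 windows beyond 120 kb had a median of -0.016 and ran from -0.071 to 0.041.

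**Figure D3:**
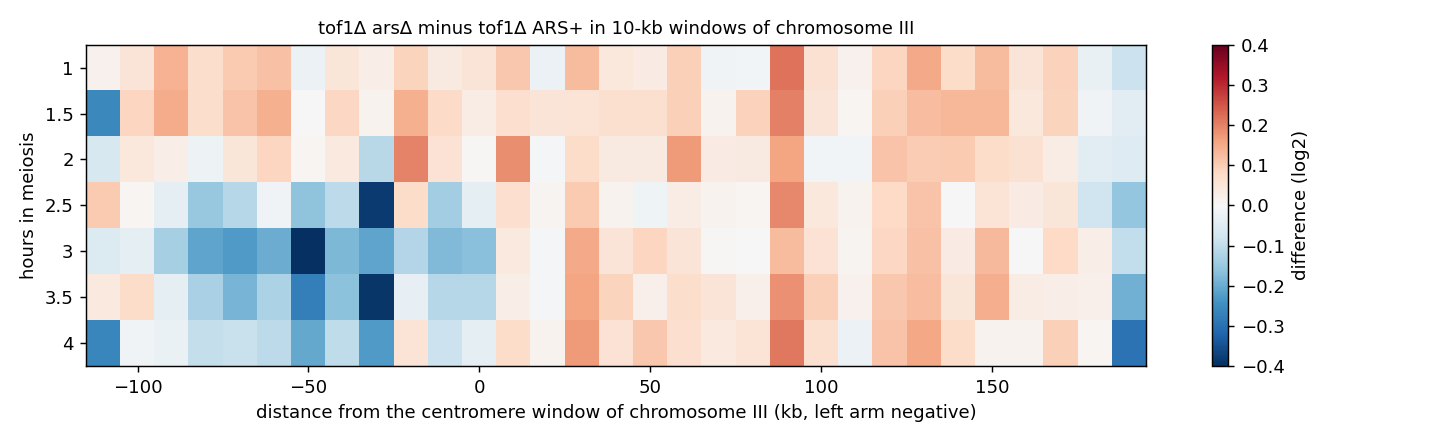
Difference between tof1∆ ars∆ and tof1∆ ARS+ (colour, log2, blue lower in tof1∆ ars∆) in 31 windows of 10 kb along chromosome III, by hours in meiosis, with distance from the centromere window in kb on the horizontal axis. Blue windows cover most of the left arm at 2.5 hr and all of it at 3 hr, with -0.17 in the centromere window.

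The windows did not cross at one time. At 2.5 hr 6 of the 12 windows of the first 120 kb were lower by 0.1 or more (off III 6.12% were), at 3 hr 10 (6.74%), at 3.5 hr 8 (5.25%) and at 4 hr 5 (5.16%). At 1, 1.5 and 2 hr there were 0, 1 and 1, against 5.77%, 5.25% and 4.72% off III. Origins are placed below by their rounded position in general knowledge, since no annotation of the files' build was used. Whether each one is among those deleted was not read from the labels.

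The window of ARS305 (30001 to 40000 on chromosome III, build sacCer2) is named for an early and efficient origin of mitotic cells. In the culture with origins it stood above both neighbouring windows at all times but 3.5 hr. At 3.5 hr the window at 40001 to 50000 was higher, with 0.068. In tof1∆ ars∆ it stood at 0.17 at 1 hr, 0.13 at 1.5 hr, 0.11 at 2 hr, 0.042 at 2.5 hr, -0.074 at 3 hr, -0.069 at 3.5 hr and -0.060 at 4 hr. In tof1∆ ARS+ it stood at 0.095, 0.058, 0.14, 0.19, 0.14, 0.061 and 0.034. The difference was -0.21 at 3 hr and the shift -0.19. At 2.5 hr, when tof1∆ ARS+ was highest there, the windows at 30001 to 40000 and at 20001 to 30000 both stood at 0.042 in tof1∆ ars∆. Earlier, the ARS305 window of tof1∆ ars∆ stood above both neighbouring windows at 1 and 2 hr but not at 1.5 hr. It stood at 0.165 against 0.137 and 0.107 at 1 hr, and at 0.115 against 0.072 and 0.106 at 2 hr. At 1.5 hr it stood at 0.128 against 0.112 and 0.130. These margins are small beside the SD over windows off III in that culture, 0.056 at 1 hr and 0.057 at 2 hr.

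The window of ARS306 (70001 to 80000), another early origin, had 0.092 at 1 hr, 0.076 at 1.5 hr, 0.086 at 2 hr, -0.043 at 2.5 hr, -0.080 at 3 hr, -0.15 at 3.5 hr and -0.14 at 4 hr in tof1∆ ars∆. In tof1∆ ARS+ it had 0.042, -0.0070, 0.047, 0.063, 0.10, 0.012 and -0.035. Its difference was -0.18 at 3 hr and its shift -0.15. Unlike ARS305, it was lower in tof1∆ ars∆ at 4 hr than at 3 hr. The window of ARS307 (100001 to 110000), which lies close to the centromere, had -0.051 in tof1∆ ars∆ and 0.13 in tof1∆ ARS+ at 3 hr, a difference of -0.18, with a shift of -0.13.

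The largest single-window difference at one time on chromosome III was at 60001 to 70000, between ARS305 and ARS306. It stood at -0.23 in tof1∆ ars∆ and 0.16 in tof1∆ ARS+ at 3 hr, a difference of -0.40. By 4 hr the values were -0.12 and 0.082, a difference of -0.20. Unlike its neighbours on the left, this window had no excess in tof1∆ ars∆ at 1 hr, with 0.079 against 0.10 in tof1∆ ARS+. The lowest shift of any window of chromosome III, -0.29, was at 80001 to 90000, where 2 positions are listed. The position at 85000 there was the lowest of the left region at 2.5 hr, with -0.71, and at 3.5 hr, with -0.62. Restricted to windows with all 4 positions, the shift of the left region was again -0.15.

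**Figure D4:**
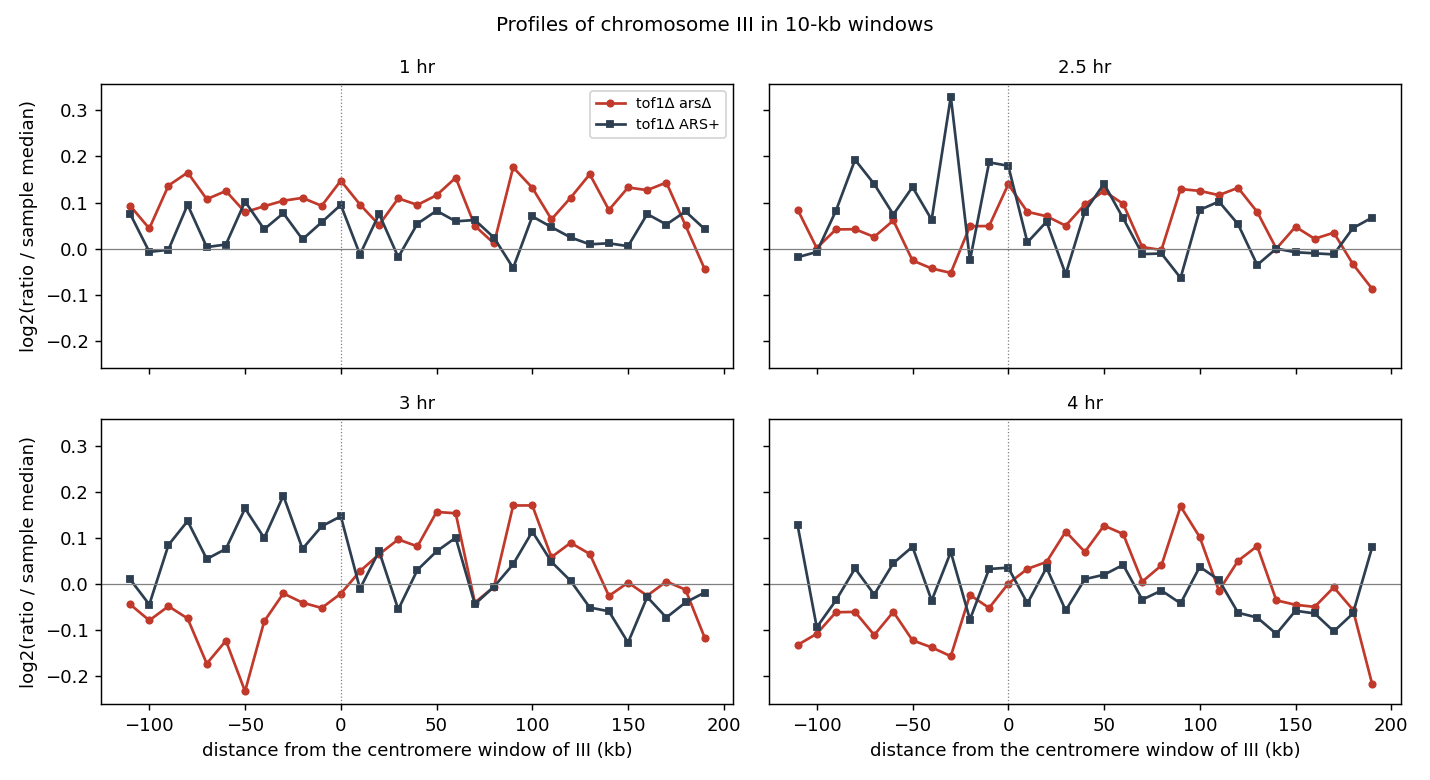
Profiles of chromosome III at 1, 2.5, 3 and 4 hr as log2 of ratio over sample median in 10-kb windows, by distance from the centromere window in kb (dotted line), with tof1∆ ars∆ in red circles and tof1∆ ARS+ in dark squares. At 3 hr the red profile lies below the dark one over the whole left arm, reaching -0.23, and at or above it over most of the right arm.

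At 3 hr the profile of tof1∆ ars∆ was lower, on the whole, with each step from the right arm towards the middle of the left. Its windows between 110001 and 170000 stood, from right to left, at 0.16, 0.082, 0.098, 0.065, 0.028 and -0.020, the last of which holds the centromere. Those between 60001 and 110000 went on with -0.051, -0.040, -0.020, -0.080 and -0.23, so the course was not even. In tof1∆ ARS+ the same 11 windows stood at 0.072, 0.031, -0.055, 0.072, -0.0094, 0.15, 0.13, 0.077, 0.19, 0.10 and 0.16, higher on the left arm than on the right. The 2 windows nearest the left end were not the lowest of the arm in tof1∆ ars∆ at 3 hr, with -0.044 at 1 to 10000, where 2 positions are listed, and -0.078 at 10001 to 20000. Their differences from tof1∆ ARS+ at 3 hr were -0.054 and -0.034, and their shifts were -0.065 and -0.036.

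The low shifts of the left arm reached the centromere window, with a break at 90001 to 100000, where the shift was -0.055. The window that holds the centromere (110001 to 120000) had 0.15 in tof1∆ ars∆ and 0.095 in tof1∆ ARS+ at 1 hr, and -0.020 and 0.15 at 3 hr. Its difference was -0.17 at 3 hr and -0.035 at 4 hr. The next window to the right (120001 to 130000) had a shift of -0.030 and a difference of 0.038 at 3 hr. The window of ARS309 (130001 to 140000) had 0.065 in tof1∆ ars∆ and 0.072 in tof1∆ ARS+ at 3 hr, with a shift of 0.025. The middle of the chromosome, from 100 to 150 kb (20 positions), thus joins both kinds of window, and its shift was -0.050, as was the lowest of the 116 other regions. Those regions are longer than the middle, so the match is not like for like.

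On the right part of chromosome III, from 150 kb (62 positions), the cultures differed by a nearly constant amount. The mean in tof1∆ ars∆ was 0.10 at 1 hr, 0.095 at 1.5 hr, 0.099 at 2 hr, 0.060 at 2.5 hr, 0.051 at 3 hr, 0.047 at 3.5 hr and 0.029 at 4 hr. In tof1∆ ARS+ it was 0.041, 0.020, 0.043, 0.029, -0.00080, -0.014 and -0.029. The difference lay between 0.031 and 0.075 at all 7 times, and the shift was -0.0097. Single windows there were less even than the mean. The window at 200001 to 210000 was higher in tof1∆ ars∆ by 0.13 to 0.22 over the 7 times. That at 240001 to 250000 was higher by 0.10 to 0.16. By contrast, 180001 to 190000 differed by only -0.013 to 0.053. These windows were named after their values were seen. ARS310 (160001 to 170000) stood at 0.16 in tof1∆ ars∆ and 0.072 in tof1∆ ARS+ at 3 hr, and its shift was 0.013. Its difference ran from -0.016 at 2.5 hr to 0.11 at 4 hr. ARS315 (220001 to 230000) stood at 0.059 and 0.049, with a shift of -0.016. ARS316 (270001 to 280000), near the right end, stood at -0.025 and -0.027, with a shift of -0.024. The last window of the right end (300001 to 310000), where 2 positions are listed, went against the right part's mean and was lower in tof1∆ ars∆ at all 7 times. Its difference was -0.087 at 1 hr, -0.041 at 1.5 hr, -0.050 at 2 hr, -0.15 at 2.5 hr, -0.098 at 3 hr, -0.19 at 3.5 hr and -0.30 at 4 hr. At 4 hr it was the lowest window of the chromosome, with -0.22 in tof1∆ ars∆ and 0.080 in tof1∆ ARS+, and its shift was -0.071. This window was named after its values were seen.

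Setting the left region against the right part of the same chromosome removes what the whole chromosome shares. The left region minus the right part was 0.0042 in tof1∆ ars∆ and -0.0034 in tof1∆ ARS+ at 1 hr, a difference of 0.0076. At 2 hr it was -0.0056 and 0.012, at 2.5 hr -0.041 and 0.061, at 3 hr -0.15 and 0.085, at 3.5 hr -0.14 and 0.038, and at 4 hr -0.12 and 0.029. The difference was -0.018 at 2 hr, -0.10 at 2.5 hr, -0.23 at 3 hr, -0.18 at 3.5 hr and -0.15 at 4 hr. On this measure, chosen after the data were seen, the cultures differed by at most 0.018 in either direction through 2 hr and by at least 0.10 from 2.5 hr on.

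The early excess of chromosome III in tof1∆ ars∆ was shared by chromosomes I and VI, which are also small. At 1 hr the whole of III stood at 0.10 in tof1∆ ars∆ and 0.040 in tof1∆ ARS+, a difference of 0.063. Chromosome I had 0.11 and 0.059, a difference of 0.048, and chromosome VI had 0.13 and 0.081, a difference of 0.051. The remaining 13 chromosomes differed by -0.015 to 0.026 at that time. At 4 hr the difference was 0.093 on I and 0.085 on VI, whereas on III it was 0.0074 for the whole chromosome and 0.058 for its right part. The shifts of I and VI were 0.0095 and 0.0077, against -0.060 for III. What the ratios were divided by is not stated, and the part of such whole-chromosome offsets in the left region's early excess was not tested.

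Away from chromosome III the profiles of both cultures were most alike at 2.5 and 3 hr. The SD over 1143 windows was 0.056 in tof1∆ ars∆ and 0.047 in tof1∆ ARS+ at 1 hr, 0.077 and 0.082 at 2.5 hr, 0.085 and 0.084 at 3 hr, and 0.064 and 0.058 at 4 hr. The SD of the difference between the cultures was 0.066 at 1 hr, 0.071 at 2.5 hr, 0.069 at 3 hr and 0.069 at 4 hr. It was below the SD of both cultures only at 2.5 and 3 hr. The correlation between the cultures across these windows was 0.19 at 1 hr, 0.27 at 2 hr, 0.61 at 2.5 hr, 0.67 at 3 hr, 0.54 at 3.5 hr and 0.38 at 4 hr. Windows are not independent and no p is given. The slope on the shared profile (the mean shift of both cultures) was 0.86 in tof1∆ ars∆ and 1.0019 in tof1∆ ARS+ at 2.5 hr, 1.08 and 1.14 at 3 hr, 0.83 and 0.78 at 3.5 hr, and 0.66 and 0.56 at 4 hr. Both were highest at 3 hr. The shared profile is made from these same samples, so positive late slopes follow in part from how it is built. The slopes describe the size of the shared profile and are no separate evidence that it is shared. At 1 hr, the baseline of that profile, they were -0.35 in tof1∆ ars∆ and -0.21 in tof1∆ ARS+. The samples of tof1∆ ars∆ at 3.5 and 4 hr correlated best with the 3 hr sample of tof1∆ ARS+, at 0.63 and 0.50. Those at 2 and 2.5 hr correlated best with a later one, at 2.5 and 3 hr, by small margins (0.28 against 0.27 and 0.613 against 0.607 at the same time), so the best matches did not all lie on one side in time. When each tof1∆ ars∆ sample was set against its best-correlated tof1∆ ARS+ sample in place of the same time, the left region's shift was -0.19. With the 2.5 to 4 hr samples scaled by their slopes and the 2 hr samples left out it was -0.20, and without the 2 hr samples alone it was -0.18.

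Centromeres, which are copied early in yeast, gave an internal comparison. The 30 windows within 10 kb of a centromere off III stood at 0.12 in tof1∆ ars∆ and 0.12 in tof1∆ ARS+ at 3 hr, with a mean difference of 0.00057. At 1 hr they stood at 0.015 in both. At 4 hr they stood at 0.077 and 0.042. Of these 30 windows, 11 had a negative shift, against 546 of the 1143 windows off III. By 0.1 or more 0 were lower, against 1.31% of all windows off III. At so low a share, a count of 0 among 30 says little. The 87 windows in the outer 30 kb of chromosomes off III stood at -0.034 in tof1∆ ars∆ and -0.046 in tof1∆ ARS+ at 3 hr. Of them 42 had a negative shift, near the share over all windows off III, and 3 were lower by 0.1 or more, against the same 1.31%. The median shift was 0.020 for centromeric windows and 0.0048 for end windows, beside 0.0028 for all windows off III.

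The 5 lowest and 5 highest windows off III with all 4 positions lay scattered over 7 chromosomes. The lowest was at 1090001 to 1100000 on chromosome IV, with a shift of -0.26 in tof1∆ ars∆ and -0.066 in tof1∆ ARS+, a difference of -0.19. Its neighbours had differences of -0.022 and 0.032. The next were at 20001 to 30000 on X (-0.13), 340001 to 350000 on IX (-0.13), 490001 to 500000 on XVI (-0.11) and 190001 to 200000 on XIV (-0.11). The highest was at 120001 to 130000 on XIV, with 0.086 in tof1∆ ars∆ and -0.066 in tof1∆ ARS+, a difference of 0.15. At 1 hr that window differed by -0.13 and from 2.5 to 4 hr by -0.020 to 0.021, so its shift comes mostly from the 1 hr samples. The other 4 highest, on VII, XV and X, had shifts from 0.11 to 0.12, and 1 of them, at 490001 to 500000 on X, had a neighbour at 0.15. The window on VII differed by -0.18 at 1 hr and by -0.15 to -0.011 from 2 to 4 hr, so it was never higher at those times. Among the lowest, 190001 to 200000 on XIV differed by 0.15 at 1 hr and by -0.014 to 0.077 from 2 to 4 hr. By contrast, the window on XV was higher from 2 to 4 hr, by 0.029 to 0.082. These 10 windows were picked for their extreme values, which are given as a description.

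In wild type and DDK OP the left region also had a negative shift, and the tof1∆ value lay close to that of wild type. The shift was -0.15 in tof1∆, -0.16 in wild type and -0.11 in DDK OP. In each of the 3 pairs the shift of the left region lay below all 116 others. The 1 hr differences that the shift takes off were unlike, at 0.069 in tof1∆, 0.020 in wild type and -0.039 in DDK OP. The closeness of tof1∆ to wild type therefore depends on the baseline. At 3 hr the differences were -0.18 in tof1∆, -0.18 in wild type and -0.16 in DDK OP. At 3.5 hr they were -0.12, -0.26 and -0.16, and at 4 hr -0.091, -0.20 and -0.15. With no baseline taken off, the tof1∆ difference was thus the smallest of the 3 at 3.5 and 4 hr. Taken as the change from 1 hr, the order was another, with DDK OP the smallest. That change was -0.19 in tof1∆, -0.28 in wild type and -0.12 in DDK OP at 3.5 hr, and -0.16, -0.22 and -0.11 at 4 hr. In tof1∆ ARS+ the left region stood at 0.024 and -5.4e-05 at those times, against 0.11 and 0.075 in wild-type ARS+ and 0.11 and 0.11 in DDK OP ARS+. In tof1∆ ars∆ it stood at -0.093 and -0.091, against -0.15 and -0.12 in wild-type ars∆ and -0.050 and -0.044 in DDK OP ars∆. With 1 pair per background, the difference between backgrounds could not be tested.

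**Figure D5:**
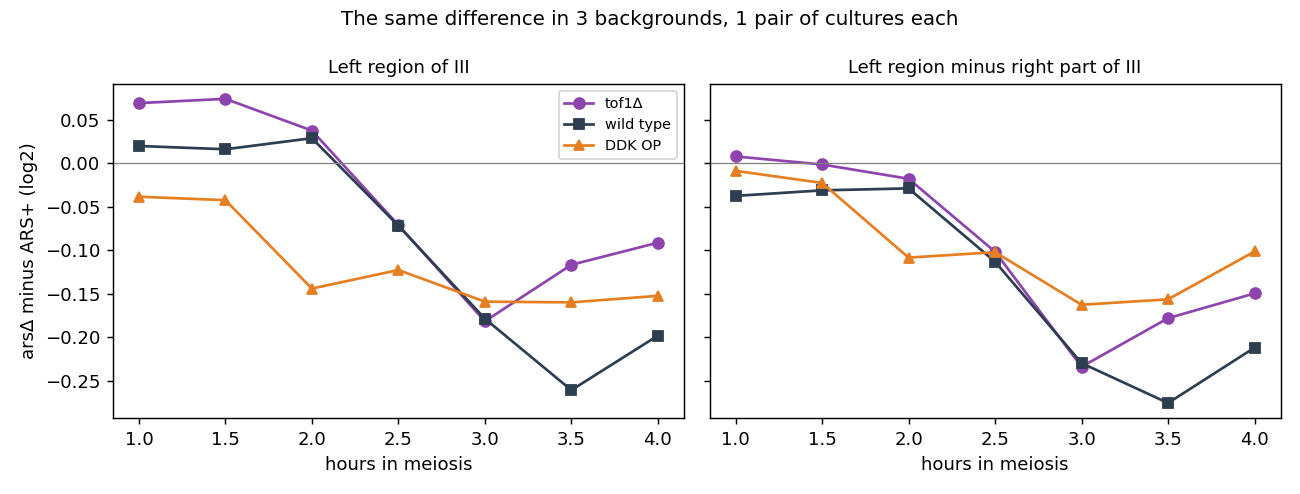
Difference between the ars∆ and ARS+ cultures (log2) by hours in meiosis in tof1∆ (circles), wild type (squares) and DDK OP (triangles), 1 pair of cultures each, for the left region of chromosome III and for the left region minus the right part. The tof1∆ line has its minimum at 3 hr, at -0.18 in the first panel and -0.23 in the second.

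Relative to the right part of chromosome III the difference at 3 hr was -0.23 in tof1∆, -0.23 in wild type and -0.16 in DDK OP. At 3.5 hr it was -0.18, -0.28 and -0.16, and at 4 hr -0.15, -0.21 and -0.10, so DDK OP had the smallest at these times on this measure. The difference departed from its 1 hr level by 2 hr in DDK OP, with -0.11, against -0.018 in tof1∆ and -0.029 in wild type. In the first 120 kb 9 of 12 windows had a shift of -0.1 or lower in tof1∆, 9 in wild type and 7 in DDK OP, while 1.31%, 2.71% and 1.57% of the windows off III did. The window at 120001 to 130000, just right of the centromere, had -0.030 in tof1∆, -0.12 in wild type and 0.015 in DDK OP. The window of ARS305 had -0.19 in tof1∆, -0.14 in wild type and -0.18 in DDK OP. The window of ARS306 had -0.15, -0.21 and -0.10. At 90001 to 100000 the shift was -0.055 in tof1∆, against -0.15 in wild type and -0.14 in DDK OP. Which of these window differences exceed the spread between cultures was not tested.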

How the data were processed

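Total DNA of synchronized meiotic cultures was sequenced, and the values used are ratios per position that the authors deposited, in 1 table per strain. The tool named is BWA and the genome build sacCer2, per the submitters' processing notes. The version of BWA, the window size and what the ratio was divided by are not given in the sources used here, and no column holds a 0 hr sample, so those were not analysed here. Each deposited ratio was divided by the median of its sample and turned into log2 by computation for this text, and averaged over regions or 10-kb windows (Python 3.11.15, numpy 2.4.6, pandas 2.3.3). The left region was the first 100 kb of III and its right part began at 150 kb. Background regions were the non-overlapping 100-kb regions off III with at least 20 positions. No p-value was computed, since each strain is 1 culture. Region and window functions were tested on simulated data. Named windows were those of the first 120 kb of III, those of 7 origins and the centromere of III, and the 5 lowest and 5 highest off III with 4 positions. The comparison, regions, lists and baseline were chosen with earlier results of these data known. No sequence is printed, as no genome of the build was used.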

Additional observations from a re-analysis of the deposited data

Results flagged for a closer look

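The window at 490001 to 500000 on chromosome XVI had a shift of -0.11 in the tof1∆ pair and of 0.12 in the wild-type pair, both past 0.1 and in opposite directions, with 0.0050 in the DDK OP pair. It was picked out, from the windows off III named for extreme tof1∆ shifts, because its values in 2 pairs were opposite. The difference was not tested. In the wild-type pair 31 of 1143 windows off III had a shift of 0.1 or higher and 31 one of -0.1 or lower. The labels do not say whether the ars∆ strains of the 2 backgrounds lack the same origins. In the tof1∆ pair the window differed by 0.096 at 1 hr, by -0.11 at 2 hr and by 0.025 at 4 hr. The tof1∆ shift was nearer to 0 than -0.1 under 7 alternatives: -0.078 with a baseline of 1 and 1.5 hr, -0.043 with 1.5 hr alone, -0.089 without the 2 hr samples, -0.089 scaled by progress, -0.095 for 2.5 to 3.5 hr, -0.096 with times matched by profile and 0.0053 as a mean of 1 to 4 hr.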

How the results depend on the processing

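No paired analysis was possible because each strain is 1 culture, and the planned count settings did not apply to ratios. A baseline of 1.5 hr and a measure relative to the right part were added with the data already seen. The shift of the left region, -0.15, stayed negative in all 18 log2 alternatives. It was -0.040 as a mean of 1 to 4 hr, -0.13 without the 3 hr samples, -0.18 without the 2 hr samples, -0.18 over 20 to 100 kb, -0.19 for 2.5 to 3.5 hr, -0.19 with times matched by profile and -0.20 scaled by progress, a setting that also drops the 2 hr samples. On the ratio scale it was -0.11. The right part's shift was 0.056 as a mean of 1 to 4 hr. The difference at 3 hr was -0.15 as a median over positions and -0.23 minus the right part. In place of 9 lower windows on III there were 3 as a mean of 1 to 4 hr, of which 2 are among the 9 and the other is 300001 to 310000. There were 18 of 59 in 5-kb and 5 of 16 in 20-kb windows. The 15 off III became 6 with a baseline of 1 and 1.5 hr, 26 as a mean of 1 to 4 hr, 8 in windows with 4 positions, 38 with matched times, 89 of 2255 in 5-kb and 4 of 581 in 20-kb windows, and 1 at a difference of 0.15.

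Of 266 values of 19 windows past 0.1, 254 kept their sign. As a mean of 1 to 4 hr, the window at 20001 to 30000 on III turned to 0.011, and off III those at 490001 to 500000 on XVI to 0.0053, 190001 to 200000 on XIV to 0.052, 120001 to 130000 on XIV to -0.0018, 700001 to 710000 on VII to -0.062, 260001 to 270000 on X to -0.034 and 490001 to 500000 on X to -0.011. With 1.5 hr as baseline, those at 340001 to 350000 on IX, 190001 to 200000 and 120001 to 130000 on XIV and 700001 to 710000 on VII turned to 0.0028, 0.021, -0.0039 and -0.14, and the last was -0.013 with a baseline of 1 and 1.5 hr. Dropping or moving the baseline changes these values by construction, and beyond that the cause was not tested. Depth is unknown, so what it limits cannot be stated.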
